A study of Homo sapiens with 4 samples.

Results

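Circular RNAs of 9 genes for HECT-type ubiquitin ligases were examined: HECTD2, HECTD4, HUWE1, UBE3A, NEDD4, NEDD4L, ITCH, WWP1 and HERC1. A circle was taken as a member when its row named one of these genes and was not typed as antisense, which gave 594 of the 211599 circles of the series. The genes were chosen by results of the same knockdown comparison, so their differences between knockdown and control are given as a description and carry no test. Of the 594 circles, 551 had a count in at least 1 library and 43 had none. Together the 551 held 4887 counts. Of these, 476 had 1 to 9 counts, and the 75 with at least 10 counts held 69.6% of the counts. Because a circle could reach 10 counts through the group in which it is abundant, counts over those 75 are a description only.

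The cells belonged to the breast cancer line MDA-MB-468, established from a human tumour, in a radiation-resistant form that had received 50 Gy in total. All 4 libraries came from resistant cells, and non-irradiated parental cells were not analysed here. Control libraries (2, labelled WT) carried a control hairpin, and knockdown libraries (2) expressed a stable hairpin that targets HNRNPL, which binds RNA and acts in alternative splicing. The labels name 1 hairpin against HNRNPL. The series calls the libraries of a group biological replicates without saying how they were separated. The question of the series is which circular RNAs depend on HNRNPL.

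HECT ligases take ubiquitin from an E2 enzyme onto a cysteine of their own HECT domain and then pass it to the substrate, so the ligase itself forms the last intermediate. The NEDD4 group (here NEDD4, NEDD4L, ITCH and WWP1) carries a membrane-binding C2 domain and WW domains that hold proline-rich motifs of substrates. HERC1 belongs to a group with RCC1-like domains, and the others have more varied N-terminal parts. A circular RNA arises when a splice donor is joined back to an acceptor upstream of it, and each circle is identified by the positions of that acceptor and donor.

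Library totals ranged from 472428 to 556578 counts in controls and from 282737 to 390547 in knockdowns. A count of 0 allows up to 3 counts, or between 0.539 and 1.06 per 100000 counts of a library. Control replicate 1 stood apart. It had 19.7% of its counts in circles typed as intronic, against 9.93% to 10.6% in the other libraries, and 12.9% against 3.71% to 5.26% among the member circles. The hairpin's effect rests on the labels, since no circle of HNRNPL was in the rows used. Of 9 markers of the line, 6 had circle counts, while KRT8, KRT18 and KRT17 had none. They summed to 87.3 to 131 per 100000 in controls and 56.8 to 60.5 in knockdowns. Most of this sum was 1 gene: GRHL2 held 1071 of the 1496 counts. KRT5 had 2 counts, in control replicate 1 only. Of tumour suppressors that the line has lost, RB1 had 0 circle counts and SMAD4 had 2. The markers of leukocytes, fibroblasts and endothelium (PTPRC, COL1A1, COL1A2, COL3A1 and PECAM1) were all at 0. Values for libraries below are in the order control 1, control 2, knockdown 1, knockdown 2. In bulk RNA, fewer cells holding a circle and fewer copies per cell cannot be told apart.

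HECTD2 had the largest ratio between the groups among the 9 genes, though not the largest difference in counts per 100000. Its 16 detected circles summed to 3, 0, 37 and 48 counts, or 0.635, 0, 13.1 and 12.3 per 100000. Both knockdown libraries lay above both controls. The group means were 0.318 ± 0.449 and 12.7 ± 0.563 per 100000 (SD, n = 2 each). The knockdown to control ratio of summed counts was 43.3, with an exact 95% interval of 14.3 to 214 that covers counting error only. On edgeR's scale the log2 fold change was 5.61 ± 0.79 (SE), the highest of the 9 and rank 15 of 8379 host genes tested. Without control replicate 1, the remaining control held 0 counts. The knockdown level was 23.4-fold higher than 3 counts in that library, with no counting error allowed in the knockdown counts. HECTD2 encodes a ligase for which the SUMO ligase PIAS1 has been described as a substrate.

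**Figure D1:**
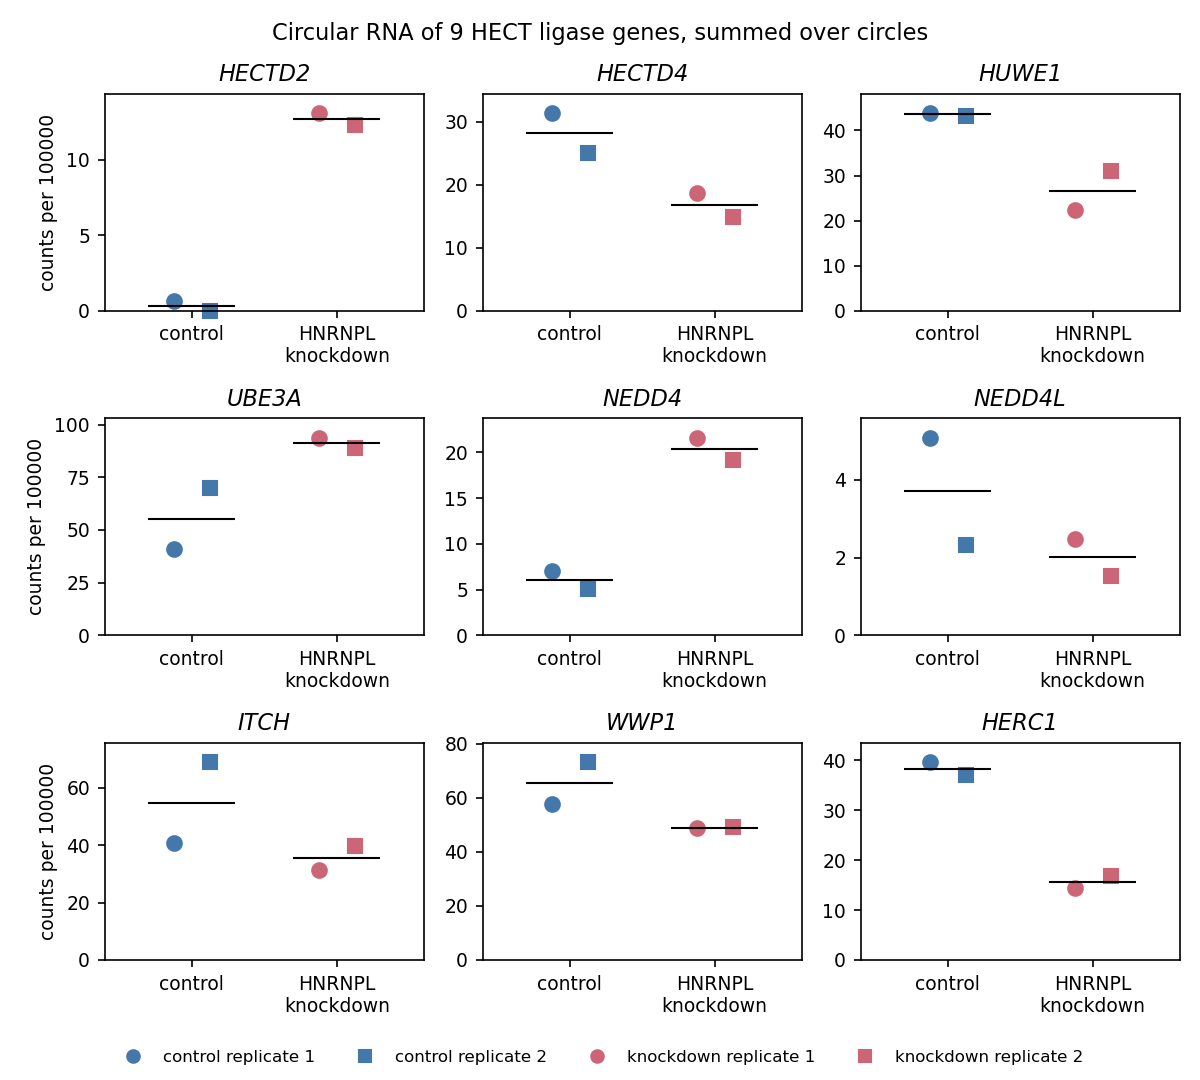
Summed circular RNA of each of the 9 genes, in counts per 100000 counts of the library, for the control and HNRNPL knockdown libraries. Each point is 1 library, lines are group means, and each panel has its own vertical axis from 0. HECTD2 is near 0 in both controls and at 13.1 and 12.3 in the knockdowns, and the groups of NEDD4L overlap.

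HECTD2 lies on the plus strand of chromosome 10 (91409235 to 91514820 in GRCh38.p14). Its most abundant circle, from 91425281 to 91501334, is 2072 nt long with 19 exons and had 2, 0, 15 and 24 counts. Its mean level was 0.21 ± 0.30 per 100000 in controls and 5.73 ± 0.59 in knockdowns, with a log2 fold change of 4.60 ± 0.97. The back-splice is flanked by the usual AG acceptor and GT donor. It was the only HECTD2 circle with at least 10 counts, yet it held less than the rest of the gene: the other 15 circles added 1 count in controls and 46 in knockdowns.

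The next circles overlapped it, and some shared one of its ends. The circle from 91425281 to 91512611 adds a 348 nt exon (2420 nt, 20 exons) and had 0, 0, 3 and 4 counts. Against 3 counts over both controls, allowed for a sum of 0, its knockdown level was 3.57-fold higher. The ratios in this paragraph allow no counting error in the few knockdown counts, so they are not lower limits. The circle from 91425281 to 91462184 ends after 4 exons (462 nt) and had 0, 0, 4 and 2 counts, a ratio of 3.06. All 3 of these circles begin at the same acceptor. A circle from 91461337 to 91512611 (2068 nt) had 0, 0, 3 and 2 counts, a ratio of 2.55. The circle from 91460471 to 91493508 (1209 nt) had 0, 0, 2 and 2 counts, a ratio of 2.04. The circle from 91478201 to 91501334 had 0, 0, 0 and 4 counts, so its groups overlapped at 0. Of the 16 detected circles, 14 had no count in either control. Of these 14, 7 were present in both knockdown libraries and 7 in 1 of them. They held at most 7 counts each, and the gene was chosen by results of this comparison. The share of such circles over all circles was not computed, so these numbers are a description only.

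The acceptor at 91425281, 16.0 kb into the gene, opened 6 circles with 60 counts, or 68.2% of the HECTD2 total. It took 67.6% and 68.8% of the gene's counts in the 2 knockdown libraries. The donor at 91501334 closed 2 circles with 45 counts (51.1%), and the donor at 91512611 closed 3 circles with 14 counts. One internal exon had a pair of starts 9 nt apart, at 91496205 and 91496214. The shorter form was in 4 circles with 2, 0, 23 and 30 counts, and the longer in 2 circles with 0, 0, 0 and 6. Intron-type circles added 5 counts in all, so 94.3% of the gene's counts were exonic.

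**Figure D2:**
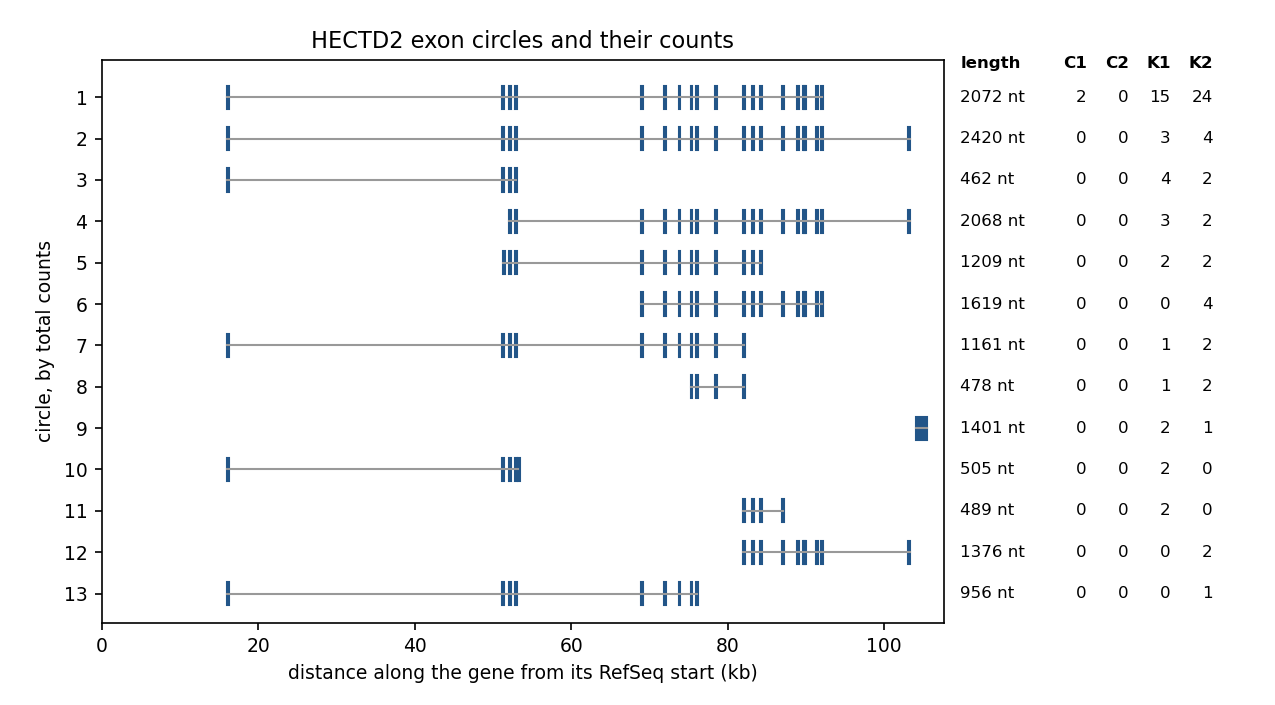
Exons of the 13 exon-type HECTD2 circles along the gene, in kb from its RefSeq start, ordered by total counts. Boxes are exons (drawn at least 0.25 kb wide) and lines join them, with length and counts in control 1 and 2 (C1, C2) and knockdown 1 and 2 (K1, K2) on the right. Only the first circle has a control count, and 6 circles begin at the exon 16.0 kb into the gene.

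By the shape of its levels over the 4 libraries, HECTD2 was most like SGO2, LCORL, SPAG16, ENSG00000258052 and FBXL13. Likeness was the root mean square distance between mean-centred log2(counts per 100000 + 1) values, over 4755 host genes with at least 40 counts. The distances were 0.16, 0.27, 0.46, 0.47 and 0.48, against a median of 1.91. SGO2, which protects cohesion at centromeres, had 20, 15, 110 and 189 counts. LCORL had 17, 10, 89 and 89 counts, SPAG16 had 16, 27, 172 and 302, and ENSG00000258052 had 34, 62, 245 and 357. FBXL13, an F-box protein of SCF-type ubiquitin ligases, had 5, 11, 52 and 81 counts. These genes were picked for this pattern, so the likeness is a description over 4 libraries. It depends on the added 1, which narrows the contrast of HECTD2, at 0.635 and 0 per 100000 in controls. The log2 fold changes of these genes lay between 3.56 and 4.35, against 5.61 for HECTD2.

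UBE3A and HUWE1 are ligases with nuclear substrates. UBE3A, also called E6AP, degrades p53 with a papillomavirus protein and is the gene of Angelman syndrome. Its 52 detected circles summed to 193, 388, 265 and 348 counts, the most of the 9 genes. Per 100000 this was 40.9, 69.7, 93.7 and 89.1, with both knockdowns above both controls. The means were 55.3 ± 20.4 and 91.4 ± 3.27, with a log2 fold change of 1.00 ± 0.43. The controls differed from each other more than the knockdowns did. Leaving out control replicate 1 gave a log2 fold change of 0.63, and leaving out control replicate 2 gave 1.73.

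UBE3A lies on the minus strand of chromosome 15 (25333728 to 25439056), and its circles differed among themselves. The most abundant, from 25354353 to 25411971 (2518 nt, 10 exons), had 65, 110, 54 and 85 counts, or 13.8, 19.8, 19.1 and 21.8 per 100000. These groups overlapped, and the log2 fold change was 0.25 ± 0.33. The second, from 25405461 to 25411971 (1844 nt, 4 exons), had 35, 52, 83 and 112 counts, or 7.41, 9.34, 29.4 and 28.7 per 100000. Here both knockdowns lay above both controls, with means of 8.38 ± 1.37 and 29.02 ± 0.48 and a log2 fold change of 1.74 ± 0.33. Both circles use the acceptor at 25411971, which opened 59.5% of the gene's counts, and they differ in the donor.

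The donor at 25405461 closed 23.8%, 19.8%, 37.7% and 39.9% of the UBE3A counts, and the donor at 25354353 closed 48.2%, 48.7%, 35.8% and 38.8%. The first share was higher and the second lower in both knockdown libraries than in both controls. Among UBE3A circles with at least 40 counts, the largest positive log2 fold change was 2.03 ± 0.72, for the circle from 25354353 to 25375763 (2292 nt) with 2, 11, 19 and 14 counts. The most negative was -0.61 ± 0.46, for the circle from 25354353 to 25415842 (2651 nt) with 19, 48, 12 and 16 counts. The 1844 nt circle has 5 listed isoforms, of 1844, 3408, 362, 946 and 2991 nt, and the counts do not separate them. Its first isoform holds an exon of 1618 nt (25407067 to 25408684) that the first isoform of the 2518 nt circle lacks. The second listed isoform of the 2518 nt circle (4136 nt, 11 exons) holds the same exon, so this exon does not set the circles apart.

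**Figure D3:**
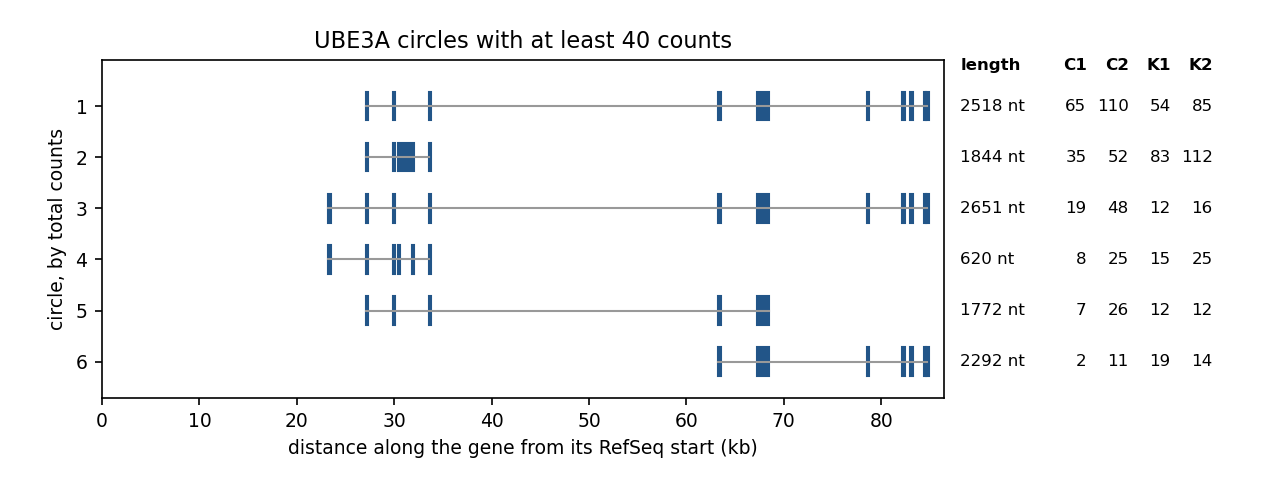
The 6 UBE3A circles with at least 40 counts along the gene, in kb from its RefSeq start in the direction of transcription, with length and counts per library (C control, K knockdown) on the right. Boxes are exons of the first listed isoform, drawn at least 0.25 kb wide. The second circle lies in the 5′ part of the region that the first spans and has 83 and 112 knockdown counts against 35 and 52 in controls.

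HUWE1 is a very large ligase whose substrates include MCL1 and p53. Its 95 detected circles summed to 207, 241, 63 and 121 counts, or 43.8, 43.3, 22.3 and 31.0 per 100000. Both knockdowns lay below both controls, with means of 43.6 ± 0.365 and 26.6 ± 6.15. The log2 fold change was -0.39 ± 0.35. It became -0.44 with control replicate 1 left out, -0.12 with control replicate 2 left out, and -0.13 and -0.67 with knockdown replicate 1 or 2 left out. Its main circle, on the minus strand of chromosome X from 53645311 to 53654131 (528 nt, 4 exons), had 38, 103, 28 and 71 counts. That circle did not follow the gene's sum: its means of 13.3 ± 7.40 and 14.04 ± 5.85 per 100000 overlapped, with a log2 fold change of 0.09 ± 0.48. All other HUWE1 circles together were at 35.8, 24.8, 12.4 and 12.8 per 100000, lower in both knockdowns. The circle from 53645311 to 53680186 (666 nt) had 9, 13, 6 and 6 counts. Intron-type circles made up 19.3%, 17.8%, 7.94% and 3.31% of the HUWE1 counts. Their part in the difference was not tested, and the log2 fold change from exon circles alone was -0.28.

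HECTD4 is a large and little-studied ligase. Its 71 detected circles summed to 148, 139, 53 and 58 counts, or 31.3, 25.0, 18.7 and 14.9 per 100000, with both knockdowns below both controls. The means were 28.2 ± 4.49 and 16.8 ± 2.75, and the log2 fold change was -0.43 ± 0.33. It lay between -0.54 and -0.28 with 1 library left out, and was -0.35 without control replicate 1. The most abundant circle was a single exon on the minus strand of chromosome 12, from 112319225 to 112319742 (518 nt). It had 18, 30, 7 and 10 counts, with means of 4.60 ± 1.12 and 2.52 ± 0.06 per 100000 and a log2 fold change of -0.90 ± 0.46. The next, from 112269704 to 112274960 (634 nt, 4 exons), had 5, 11, 1 and 4 counts. No HECTD4 circle dominated: the first held between 12.2% and 21.6% of the gene's counts in a library.

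NEDD4, the founding member of its group, ubiquitinates membrane proteins and so directs their sorting. Its 39 detected circles summed to 33, 28, 61 and 75 counts, or 6.99, 5.03, 21.6 and 19.2 per 100000. Both knockdowns lay above both controls, with means of 6.01 ± 1.38 and 20.4 ± 1.68. The ratio of summed counts was 3.41, with a 95% counting interval of 2.50 to 4.69, and the log2 fold change was 2.08 ± 0.36 (rank 324 of 8379). It was 2.24 without control replicate 1. Intron-type circles made up 33.3%, 17.9%, 4.92% and 4.00% of the NEDD4 counts, and the log2 fold change from exon circles alone was 2.34.

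Most of the NEDD4 difference lay in 1 circle. On the minus strand of chromosome 15, from 55915284 to 55916911, it is a single exon of 1628 nt in its first isoform, with 2 others of 1113 and 500 nt. It had 2, 10, 32 and 48 counts, or 0.42, 1.80, 11.3 and 12.3 per 100000. Both knockdowns were above both controls, with means of 1.11 ± 0.97 and 11.8 ± 0.69, a log2 fold change of 3.34 ± 0.58 and a count ratio of 10.2 (5.52 to 20.5). The circle's share of the gene's counts was 6.06%, 35.7%, 52.5% and 64.0%. All other NEDD4 circles together were at 6.56, 3.23, 10.3 and 6.91 per 100000, where the knockdowns were still above the controls but by less. The acceptor of the main circle lies 220 nt downstream of the nearest of 3 NEDD4 starts listed by RefSeq. Its donor closed 4 circles with 115 counts, and the next of these, from 55915284 to 55924699 (1682 nt), had 0, 2, 3 and 6 counts.

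NEDD4L, which limits the epithelial sodium channel, had few circles: 20 detected circles with 24, 13, 7 and 6 counts, or 5.08, 2.34, 2.48 and 1.54 per 100000. Its groups overlapped (3.71 ± 1.94 and 2.01 ± 0.664), with a log2 fold change of -0.55 ± 0.70 and of -0.02 without control replicate 1. No NEDD4L circle reached 10 counts, and 44.0% of its counts were exonic, the lowest share of the 9 genes. Its most counted circle, on chromosome 18 from 58245427 to 58252054 (3565 nt), had 0, 1, 3 and 2 counts. The next, an intron-type circle from 58071451 to 58074705, had 4 counts, all from control replicate 1.

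ITCH, a ligase for JUNB in lymphocytes, had 103 detected circles with 192, 383, 89 and 155 counts, or 40.6, 68.8, 31.5 and 39.7 per 100000. Control replicate 2 stood well above the rest, and control replicate 1 exceeded knockdown replicate 2 only slightly. The means were 54.7 ± 19.9 and 35.6 ± 5.81, with a log2 fold change of -0.34 ± 0.42 that became -0.70 with control replicate 1 left out and 0.40 with control replicate 2 left out. The most abundant circle, on chromosome 20 from 34470048 to 34492597 (992 nt, 9 exons), had 25, 169, 15 and 29 counts. Its level thus varied most between the controls (17.8 ± 17.7 per 100000, against 6.37 ± 1.5), and the log2 fold change of -1.42 ± 0.73 came from overlapping groups. The next, from 34470048 to 34481206 (669 nt), had 4, 66, 11 and 23 counts and a log2 fold change of -0.31 ± 0.95. All ITCH circles also name another gene. Of them, 43 name the microRNA gene MIR644A, but its hairpin lay in the listed exons of 0 of these.

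WWP1, a ligase described for the transcription factor KLF5, had 76 detected circles with 272, 407, 138 and 192 counts, or 57.6, 73.1, 48.8 and 49.2 per 100000. The means were 65.4 ± 11 and 49.0 ± 0.25, and the log2 fold change was -0.12 ± 0.37. It became -0.34 with control replicate 1 left out and 0.34 with control replicate 2 left out, so the direction depended on which control was kept. The main circle, on chromosome 8 from 86369009 to 86467010, spans 24 exons in 2930 nt and had 142, 200, 57 and 73 counts. Both knockdowns of this circle lay below both controls, with means of 33.0 ± 4.16 and 19.4 ± 1.04 per 100000 and a log2 fold change of -0.82 ± 0.32. All other WWP1 circles together were at 27.5, 37.2, 28.6 and 30.5 per 100000, and these groups overlapped. The circle's share of the gene was 52.2%, 49.1%, 41.3% and 38%. Its acceptor opened 68.4%, 66.6%, 52.2% and 54.7% of WWP1 counts. The second circle, from 86398342 to 86411874 (727 nt), had 10, 18, 10 and 12 counts and a log2 fold change of 0.26 ± 0.49.

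HERC1, a giant protein with RCC1-like domains and a HECT domain, had 79 detected circles with 187, 206, 41 and 66 counts. Per 100000 this was 39.6, 37.0, 14.5 and 16.9, the widest gap among the genes that were lower in the knockdowns. The means were 38.3 ± 1.82 and 15.7 ± 1.70, and the log2 fold change was -0.97 ± 0.33, or -0.99 without control replicate 1. Both named circles, on the minus strand of chromosome 15, were lower in both knockdowns. The circle from 63696124 to 63716473 (1143 nt, 6 exons) had 51, 74, 18 and 21 counts, with means of 12.1 ± 1.77 and 5.87 ± 0.70 per 100000 and a log2 fold change of -1.09 ± 0.37. The circle from 63674342 to 63689699 (1885 nt, 6 exons) had 17, 24, 4 and 6 counts, with means of 3.96 ± 0.50 and 1.48 ± 0.09 and a log2 fold change of -1.45 ± 0.52.

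**Figure D4:**
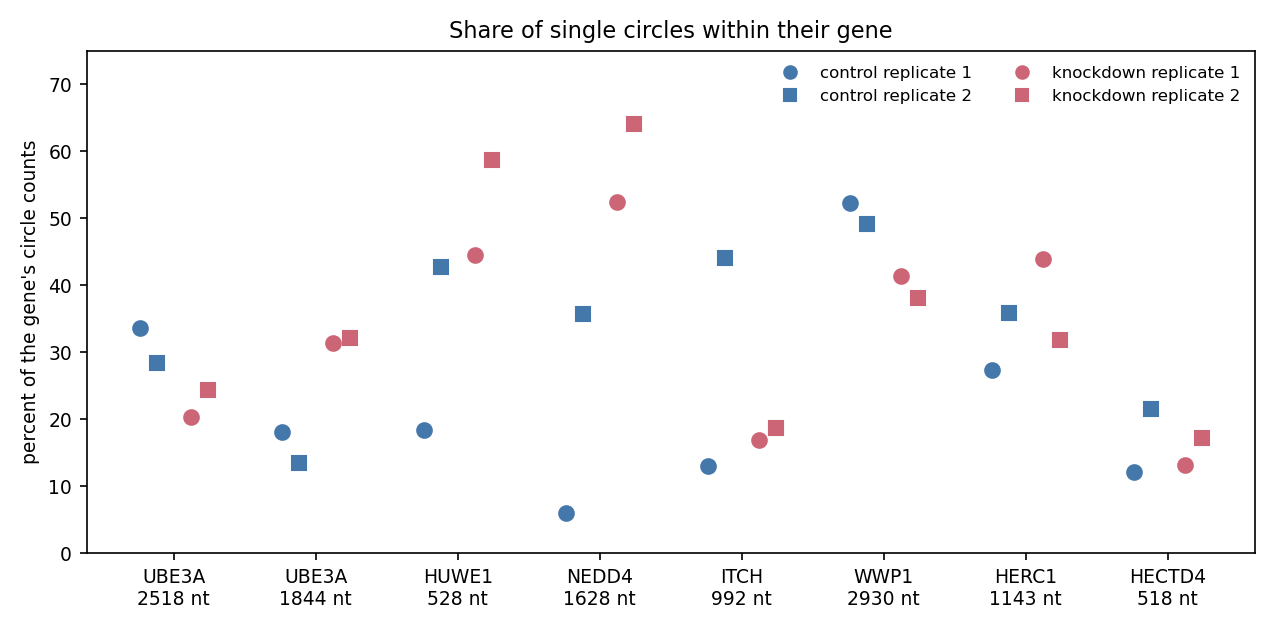
Share of a gene's circle counts held by single circles, in percent, for each library. Circle lengths are under the gene names. The 1628 nt circle of NEDD4 and the 1844 nt circle of UBE3A have higher shares in both knockdown libraries than in both controls, and the 2930 nt circle of WWP1 has lower ones.

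The share of a gene's counts in its most abundant circle thus moved in different ways. It was higher in both knockdowns for HUWE1 (18.4%, 42.7%, 44.4% and 58.7%) and NEDD4, and lower in both for UBE3A and WWP1. For HECTD4, ITCH and HERC1 the groups overlapped. The median difference over these 7 genes was -1.65 percentage points.

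Over the 9 genes, HECTD2, UBE3A and NEDD4 were above in both knockdown libraries, 5 were below and NEDD4L overlapped. Among all 8379 host genes with at least 10 counts, 15.3% were above and 36.7% below, and with at least 40 counts 19% and 39.8%. edgeR's quasi-likelihood test called 37 host genes higher at an adjusted p-value under 0.05, which is 0.442%, and 0 lower, and HECTD2 was among the 37. It was also used to choose the genes, so nothing is read from this. The host genes had a median log2 fold change of -0.26 with TMM scaling, which library-size scaling put at -0.59. Relative to the first median, HECTD2 stood at 5.87, NEDD4 at 2.34, UBE3A at 1.26, WWP1 at 0.14, HUWE1 at -0.13, HECTD4 at -0.17 and HERC1 at -0.71. WWP1 thus lay below 0 and above the median of all genes.

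**Figure D5:**
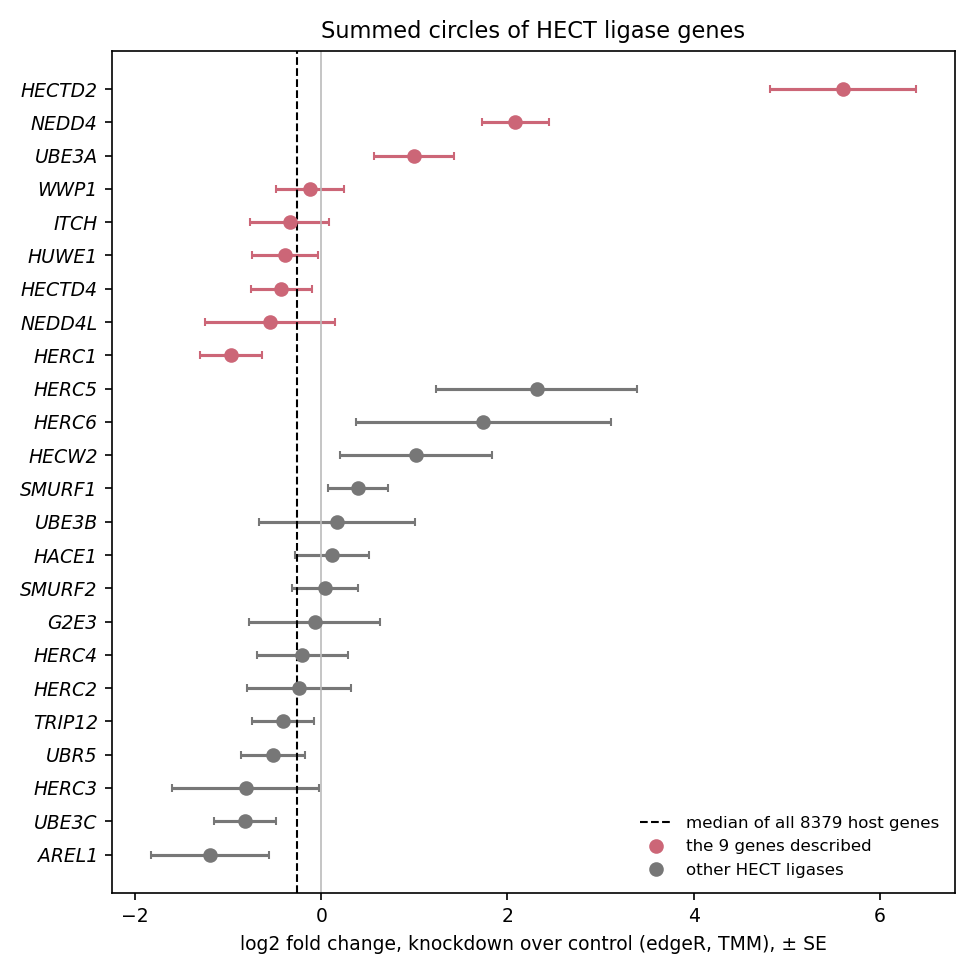
Log2 fold change of summed circles, knockdown over control, for the 9 genes and other HECT ligase genes (edgeR with TMM scaling, bars are ± SE). The dashed line is the median of all 8379 host genes, -0.26. HECTD2 lies farthest to the right at 5.61, and 6 of the 9 genes are below 0.

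At the level of circles, 11 of the 75 member circles with at least 10 counts were above in both knockdowns, 22 were below and 42 overlapped. Over all 21576 such circles 23.2% were above and 22.9% below. With at least 40 counts, 5 of 16 member circles were above and 4 below, against 29.7% and 28.9% of all. The median log2 fold change of the 75 was -0.30. edgeR called 0 circles at the adjusted threshold in either direction (0%), members included, while 2925 had an unadjusted p-value under 0.05 and DESeq2 called 1085. By gene, 3 circles were above and 0 below of 3 for NEDD4, and 4 above and 1 below of 15 for UBE3A. The 1 HECTD2 circle was above. For HECTD4 0 were above and 6 below of 8, for WWP1 1 and 7 of 17, and for HERC1 0 and 3 of 7. HUWE1 had 0 above and 2 below of 11, and ITCH had 2 and 3 of 13. The numbers per gene are small, and no difference between genes is read from them.

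In structure, the member circles were longer than the 169956 detected circles of the series that are not antisense. The median length was 1513 nt against 1346 nt, and among exon circles 1502 nt with 9 exons against 1248 nt with 6. Exon circles made up 80.6% of members and 64.9% of all. The deposited splice field read AG-GT in some form for 92.9% of members and 85.9% of all, including entries with an asterisk whose meaning was not given or with shifted sites. It read AG-GT with neither asterisk nor shift for 55.5% and 35.7%, and among exon circles for 68.9% and 54.9%. A single library held 47.2% of member circles, and all 4 libraries held 12.9%, against 55.3% and 10.0% of all. Among exon circles these shares were 41.9% and 15.8% for members, against 45.8% and 13.8% of all. These are descriptions of circles that share genes and libraries. Per 100 kb of gene span, the mean level over the libraries was 69.6 counts per 100000 for UBE3A, 45.4 for WWP1, 30.4 for ITCH and 22.7 for HUWE1. It was 12 for HERC1, 10.1 for HECTD4, 7.92 for NEDD4, 6.16 for HECTD2 and 0.800 for NEDD4L.

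The other HECT ligases were examined as the family background. Of 19 genes, 17 had circle counts and 16 were tested. By edgeR's quasi-likelihood test with Benjamini-Hochberg adjustment over all host genes 0 of the 16 passed, 1 had an unadjusted p-value under 0.05 and DESeq2 called 0. Their log2 fold changes were positive for 8 and negative for 8, with a median of -0.02. HERC4 and UBE3C were among the most counted. HERC4 had 831, 1853, 496 and 748 counts (log2 fold change -0.20 ± 0.49). UBE3C, which lengthens ubiquitin chains at the proteasome, had 379, 376, 98 and 128 (-0.81 ± 0.33, edgeR adjusted p = 0.339). Both knockdowns were above both controls for 3 of the 16 and below for 6, beside 15.3% and 36.7% of all host genes tested.

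Upstream partners of the ligases were 10 E2 enzymes, which hand over ubiquitin, and 13 adaptors or partners of the NEDD4 group. Of these 23 genes, 18 had circle counts and 17 were tested. edgeR called 0, with 2 at an unadjusted p-value under 0.05, and DESeq2 called 0. The log2 fold changes were positive for 6 and negative for 11, with a median of -0.34. The most counted were the E2 enzyme UBE2E3 (100, 220, 49 and 89 counts), STAM2 (47, 93, 46 and 61), an endosomal sorting protein, and ITSN2 (63, 71, 60 and 49), an endocytic scaffold. The groups of these 3 overlapped in counts per 100000, with log2 fold changes of -0.32 ± 0.44, 0.53 ± 0.42 and 0.67 ± 0.38.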

How the data were processed

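Circular RNA was read on nanopores from rolling reverse transcription products of total RNA, amplified with phi29 polymerase, per the labels' protocols. Amplified copies carry no molecular identifiers, so several counts may come from 1 molecule. The intervals cover counting error only and treat each count as independent, so they may be too narrow. The deposited counts are whole, not normalized, 1 per back-splice position, and each row names the caller CIRI-long, per the file headers. The build is GRCh38.p14 and DESeq2 was used, per the submitters' processing notes. Versions and filters were not given in the sources used here. Other deposited columns give circle length and exons.

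Members and gene lists were chosen with earlier results of these data known. A circle counted for every gene it names. Sums per gene and circles with at least 10 counts were fitted with edgeR 4.0.16 (quasi-likelihood, TMM, Benjamini-Hochberg, R 4.3.3), group as the only term, on 2 against 2 libraries. SEs were derived from the F statistic. The fit was also run on simulated data with equal numbers of rises and falls and the same dispersion in every gene. That run checked the code and not how the fit performs on these libraries. p-values measure the spread between these libraries, which may be technical. Exon counts use the first isoform listed. Gene spans are from RefSeq. Named circles were, for HECTD2, the 5 most counted with ties (1 had at least 40 counts), and for the other genes the 2 most counted and the largest change in each direction among those with at least 40 counts. Of the other lists, genes past the threshold and the 3 most counted were to be named, and some of them are not reported here. Replicate numbers were treated as names. Alternatives were other scalings, count minimums, DESeq2 1.42.0, the newer dispersion method, a replicate block, circles naming 1 gene, exon circles and leaving out each library.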

Additional observations from a re-analysis of the deposited data

How the results depend on the processing

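HECTD2, NEDD4 and UBE3A had positive and HECTD4, HUWE1, NEDD4L and HERC1 negative log2 fold changes under all 14 alternatives, and ITCH and WWP1 turned positive without control replicate 2. HECTD2 ranged from 5.27 to 5.93 under other settings and from 4.80 to 8.81 with 1 library left out, where the upper value comes from a control at 0 and depends on edgeR's prior count. HECTD2 was not called under the newer dispersion method or without either knockdown library. All alternatives refit values by which the genes were chosen, so nothing is read from its calls. The number of host genes called, 37, became 60 with DESeq2's size factors, 184 with DESeq2, 412 without a filter, 108 with at least 40 counts, 323 with a replicate block, 116 where 2 libraries had to reach 5 counts, 89 with circles naming 1 gene and 71 with exon circles. edgeR's newer dispersion estimate gave 0, with 1263 unadjusted p-values under 0.05. It was 1672 and 2776 without control replicate 1 or 2 and 0 without either knockdown library, a range of 0 to 2776. Called circles, 0, became 1085 with DESeq2, 471 without a filter, 562 with at least 40 counts, 1422 where 2 libraries had to reach 5 counts and 1620 with a replicate block, and 0 to 6421 with 1 library left out. The other HECT ligases had 0 to 7 calls with 1 library left out, and the E2 enzymes and adaptors 0 to 6, with 1 without a filter and 1 with the replicate block. In fits without 1 control, the lone control is assumed to vary like the knockdowns. The cause of these shifts was not tested. The labels name no pairing of same-numbered libraries, so the replicate block has no basis in the labels. Same-numbered libraries hardly deviated together (Pearson r = 0.07 over 4944 circles). With 2 libraries per group this cannot decide whether they were paired. ITCH had no value from circles naming 1 gene. Depth limits HECTD2 in controls (3 counts in all) and NEDD4L in every library.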

Other observations

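Antisense circles at the member genes, which were not counted as members, were unevenly spread over the libraries. Over all circles, antisense types held 6.79% of the counts in control replicate 1 and 2.38% to 2.69% in the other libraries. At NEDD4L they had 23, 16, 2 and 4 counts in control 1, control 2, knockdown 1 and knockdown 2, about as many as the sense circles there. At ITCH they had 30, 10, 1 and 3 counts, at HUWE1 9, 2, 1 and 1, and at NEDD4 7, 4, 1 and 3. HECTD4 had 1, 4, 0 and 0, while WWP1 had 0, 0, 0 and 2 and HERC1 had 0, 0, 1 and 3. HECTD2 and UBE3A had no antisense circle in the rows used. Among circles of ITCH with fewer than 40 counts, that from 34369394 to 34413879 (573 nt, 5 exons) had 1, 3, 8 and 12 counts, with a log2 fold change of 2.84 ± 0.76, while the gene's sum was lower in the knockdowns. It was singled out after its values were seen. Among E2 enzymes, UBE2E2 had 51, 52, 4 and 9 counts (log2 fold change -2.07 ± 0.51, edgeR adjusted p = 0.153), and was also singled out after its values were seen.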
